A study of Mus musculus with 9 samples.

Results

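The genes described here are 10 members of the bone morphogenetic protein (BMP), activin and TGF-beta signalling system, taken by gene symbol from the array annotation: the ligand genes Bmp4, Bmp6 and Inhba, the secreted antagonist Grem1, the inhibitory Smads Smad6 and Smad7, and the target genes Id1, Id2, Id3 and Id4. They were covered by 16 probe sets carrying one of these symbols alone. Of these, 14 had a mean signal of at least 100 over the 9 arrays and were tested among 19090 probe sets (10177 named genes), and all 10 genes had at least 1 tested probe set. The remaining 2 probe sets, for Id2 (mean signal 90.7) and Inhba (far below that), were too dim to test.

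Expression was measured on 9 Affymetrix mouse arrays in 2 lines of fibroblasts derived from E13.5 mouse embryos, connective-tissue cells that had become immortal spontaneously in culture. Cells of the null line were knocked out for Suv420h1, a histone H4 methyltransferase listed on the array as Kmt5b. They were measured untransduced and with GFP (the null group, 2 arrays), and after a Suv420h1-GFP fusion protein had been put back (the reconstituted group, 1 array). The second line, from wild-type embryos, had received lentivirus for GFP or LacZ (control vector, 2 arrays), full-length PREX2 (1 array), or PREX2 truncated by a stop codon at K278*, E824* or Q1430* (3 arrays); PREX2 activates the GTPase Rac. Line and Suv420h1 genotype cannot be told apart in the comparison between lines. No construct was repeated within a group and the labels name no separate cultures. All p-values therefore reflect array-to-array spread, which may be technical, and with so few arrays each estimate is imprecise. In bulk RNA, fewer cells of a type and less RNA per cell cannot be told apart.

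BMPs and activins are secreted dimers that bring type I and type II receptor kinases together at the cell surface. The type I receptor phosphorylates receptor Smads, chiefly Smad1, Smad5 and Smad9 for BMPs and Smad2 and Smad3 for activin and TGF-beta, which join Smad4 and enter the nucleus. The Id genes are classical direct targets of BMP Smads and encode helix-loop-helix proteins without a DNA-binding region, which sequester the E proteins. Smad6 and Smad7 are induced by the same signals and shut the pathway down, while gremlin binds BMPs outside the cell. In fibroblasts these signals govern differentiation, matrix production and growth.

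The wild-type GFP array differed from each of the other 5 wild-type-line arrays by more than 2-fold at 493 to 1914 of 19090 tested probe sets, least from K278* and by 1301 from LacZ, its partner in the control group. The other wild-type-line pairs differed at 65 to 648, most between K278* and E824*, so K278* was nearer to GFP than to E824*. The 2 null arrays differed from each other at 81. As a check of the labels, 1 Kmt5b probe set, picked with its signals known, was near background in the null group (8.85 and 17.3), recovered to 150.3 with the fusion protein and ranged from 118 to 182 in wild-type cells; the brightest of its 5 probe sets (mean signal 411) showed no such loss. The brighter of 2 Prex2 probe sets read 452 with GFP, 677 with LacZ, 795 with full-length PREX2, and 809, 722 and 703 with K278*, E824* and Q1430*, so the constructs did not stand out; the labels do not say whether it reads them. All 13 fibroblast markers looked up were tested, with summed signals of 136200 to 147300 in the null line and 147700 to 208800 in the wild-type line. Between lines 0 of the 13 passed as higher in the null line (19.5% of all probe sets did) and 3 as lower (18.1% did). The lower ones were Thy1, nearly absent from the null line (mean signals of 15.2 against 2873), Prrx1 (6661 against 13210) and Twist2 (1297 against 2455). Of 33 markers of other cell types (endothelial, leukocyte, epithelial, cartilage and bone, fat, muscle, neural), 14 were tested. Between lines 2 were higher in the null line (19.5% of all probe sets were) and 9 lower (18.1% of all probe sets were). Those higher were the cartilage collagen Col2a1 (mean signals of 609.8 against 21.6, 3 against 6 arrays) and the fat regulator Pparg (407 against 63.4). Those lower were the neural genes Map2 (155 against 1392) and Tubb3 (26.7 against 261), Tek (62.1 against 319), Krt19 (62.8 against 257), Csf1r (203 against 451), Acta1 (174 against 335), Fabp4, Sox9 and Des. Of these markers, Col2a1 and Pparg reached the minimum mean signal only through the null line, so they could be tested only because they differed. Tubb3, Tek and Krt19 reached it only through the wild-type line, as did the fibroblast marker Thy1. Defining genes such as Pecam1, Cdh5, Ptprc, Adgre1, Cdh1, Acan, Sp7, Adipoq, Myod1, Myog and Sox2 had mean signals under 100. The part of these markers in the results was not tested.

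RefSeq promoter sequences (GRCm38.p6) matched 8 of the 10 genes. Id1 and Smad7 had no matched sequence and were not searched, nor was any sequence beyond the 250 bases used here. The 250 bases before the transcription start are printed for the pair of genes whose lower level in the null line passed the test at every tested probe set in both comparisons, Id4 and Id2, and for a pair that was higher there, Bmp6 and Smad6, because the members moved in both directions. Capitals mark matches, on either strand, to GGCGCC or GCCGNCGC, GC-rich elements to which BMP Smads are known to bind. Each sequence reads 5′ to 3′ towards the start.

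Id4, chr13:48260866-48261115, plus strand: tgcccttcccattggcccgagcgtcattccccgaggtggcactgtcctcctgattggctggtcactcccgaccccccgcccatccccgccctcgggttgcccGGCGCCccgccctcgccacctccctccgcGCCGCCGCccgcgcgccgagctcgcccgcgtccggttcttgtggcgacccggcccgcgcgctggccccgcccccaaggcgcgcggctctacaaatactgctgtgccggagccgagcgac

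Id2, chr12:25096093-25096342, minus strand: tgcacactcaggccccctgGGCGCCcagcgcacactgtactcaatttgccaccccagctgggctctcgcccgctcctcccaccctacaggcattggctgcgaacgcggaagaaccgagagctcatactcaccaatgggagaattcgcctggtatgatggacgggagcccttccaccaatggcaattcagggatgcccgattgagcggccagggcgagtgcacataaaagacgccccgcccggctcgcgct

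Bmp6, chr13:38345466-38345715, plus strand: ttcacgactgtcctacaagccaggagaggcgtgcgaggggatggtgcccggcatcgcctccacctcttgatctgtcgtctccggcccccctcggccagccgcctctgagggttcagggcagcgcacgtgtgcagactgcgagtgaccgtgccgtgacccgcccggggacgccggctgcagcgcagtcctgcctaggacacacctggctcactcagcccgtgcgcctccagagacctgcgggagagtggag

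Smad6, chr9:64022060-64022309, minus strand: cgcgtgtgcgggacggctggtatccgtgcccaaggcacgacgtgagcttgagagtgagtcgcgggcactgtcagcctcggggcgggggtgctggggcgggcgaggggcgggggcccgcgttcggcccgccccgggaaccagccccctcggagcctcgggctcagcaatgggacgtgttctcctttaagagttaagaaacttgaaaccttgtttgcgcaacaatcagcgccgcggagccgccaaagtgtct

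The palindromic Smad-binding element GTCTAGAC was searched as well and was found in none of the 8 windows; 0.167% of 32851 mouse windows of the same length held it. GGCGCC occurred once each in Id4, Id2 and Grem1, against 9.59% of all windows. GCCGNCGC occurred once in Id4 and 2 times in Grem1, where a match overlapped the GGCGCC match, against 6.89% of all windows. No match was found in Bmp6, Smad6, Bmp4, Id3 or Inhba. The GC content of the windows with a match was 75.6% for Id4, 72% for Grem1 and 62.8% for Id2. That of the windows without one was 68.8% for Bmp6, 66.8% for Smad6, 63.2% for Bmp4, 62.8% for Id3 and 43.2% for Inhba, and the median over all windows was 52.4%.

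Between the lines the members moved in both directions, also within a role. In the null line Bmp6, Inhba, Smad6 and Smad7 were higher and Bmp4, Id2, Id3 and Id4 were lower, whereas Id1 and Grem1 did not pass the test. This is the comparison of 3 null-line with 6 wild-type-line arrays, by the brightest probe set of each gene, in limma at an adjusted p below 0.05. In it 4 of 10 member genes were higher, where 19.5% of all probe sets were, and 4 were lower, where 18.1% of all probe sets were. Bmp6, counted as higher here and against control vector, reached the minimum mean signal only through the null line. Smad7 is counted by a probe set that was the brighter of its pair only through the null line. Over the 6 wild-type-line arrays its mean signal was 414.3, against 619.9 at the other Smad7 probe set. That other probe set passed in neither comparison in this fit. All null-line arrays lay above all wild-type-line arrays for 4 members (21.4% of all probe sets) and below them for 3 (19.1%). The median log2 difference over the members was 0.18, against 0.00 over all tested probe sets. In the narrower comparison of 2 null with 2 control-vector arrays, which shares those arrays with the first, 3 members rose (Bmp6, Smad6 and Smad7; 10.7% of all probe sets) and 2 fell (Id2 and Id4; 8.94% of all probe sets). There the member median was -0.08. Leaving out the untransduced null array left 1 null array, and fewer members passed, as did fewer of all probe sets. The log2 differences of these 5 members were then 3.47 for Bmp6, 1.38 for Smad6, 2.01 for Smad7, -0.71 for Id2 and -1.82 for Id4.

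**Figure D1:**
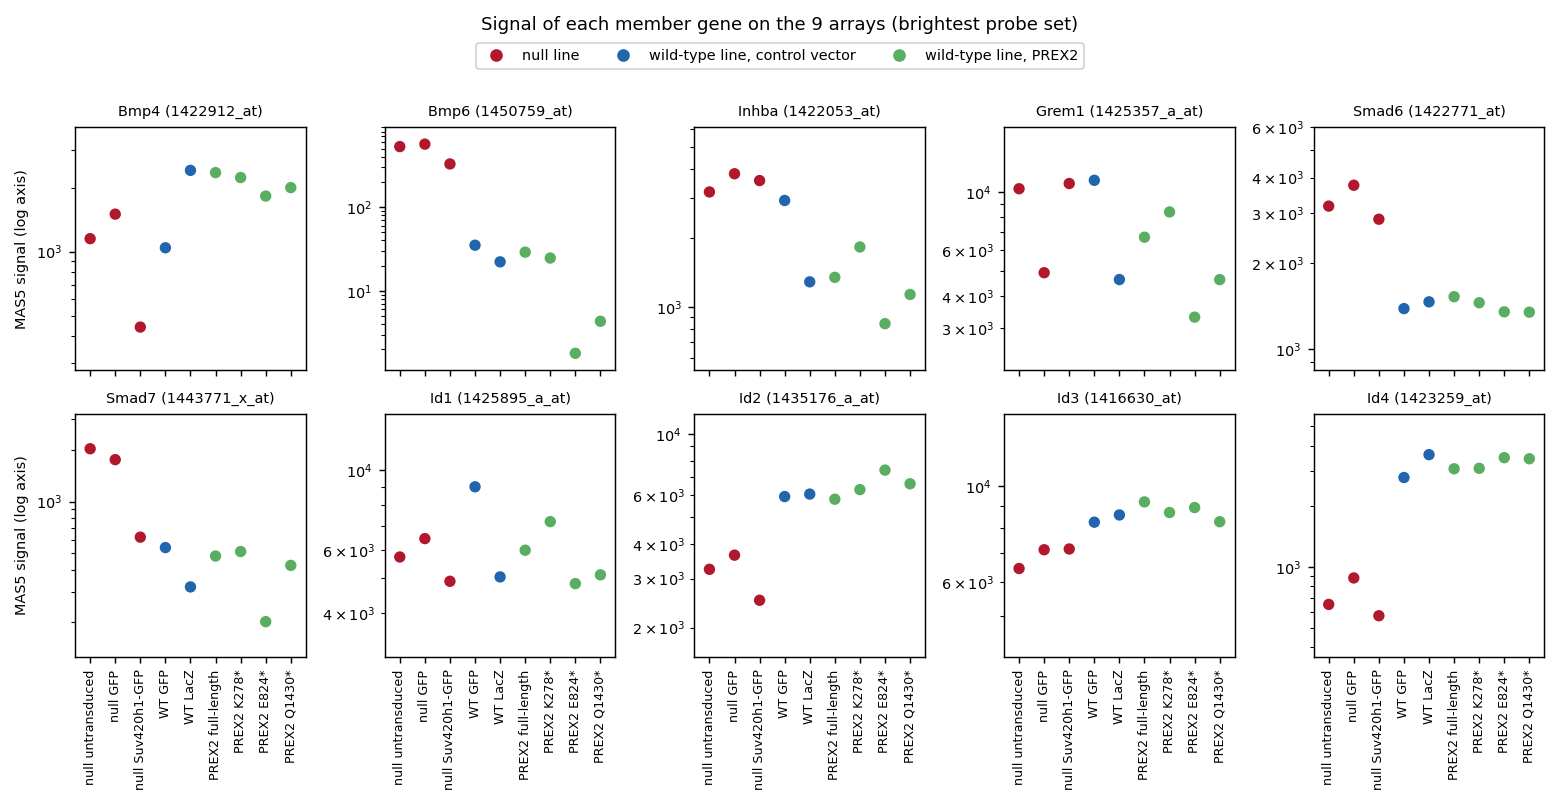
Signal of the brightest probe set of each of the 10 genes (log axis) on each of the 9 arrays, with null-line arrays in red, control-vector arrays in blue and PREX2 arrays in green. Bmp6, Smad6, Smad7 and Inhba are higher on all 3 null-line arrays than on any wild-type-line array, Id2, Id3 and Id4 are lower, and the groups overlap for Bmp4, Grem1 and Id1.

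Bmp6, a ligand of the BMP receptors that also acts in iron sensing, had the largest difference of the 10. In the null line it read 529.6 untransduced, 567 with GFP and 328 after reconstitution. In the wild-type line it read 35.1 with GFP, 22.2 with LacZ, 29.0 with full-length PREX2, 24.6 with K278*, 1.79 with E824* and 4.32 with Q1430*. Every null-line array was therefore far above every wild-type-line array, where the transcript was near background. Bmp6 passed the minimum mean signal only through the null line, so it could be tested only because it differed; without the minimum its adjusted p was 0.000118 between lines. The log2 difference was 3.52 (SE 0.236, 3 against 6 arrays, adjusted p = 6.36e-05) between lines and 3.43 (SE 0.334, 2 against 2, adjusted p = 0.000841) between the null and control-vector groups. Because the wild-type signals were close to or under the offset of 25 added before taking logarithms, the size of the difference between lines depends on it and was 4.53 with an offset of 5 and 2.25 with an offset of 100.

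Bmp4, a ligand of the same receptors, went the other way. The null arrays read 1151 and 1502 and the reconstituted array 441. Wild-type GFP read 1043, LacZ 2415, full-length PREX2 2357, K278* 2234, E824* 1828 and Q1430* 2002. The lines overlapped only through the wild-type GFP array. Between lines the log2 difference was -1.04 (SE 0.249, adjusted p = 0.0151), but it rested on the reconstituted array: without that array it was -0.53 and did not pass (adjusted p = 0.204). Against control vector alone it was -0.27 (SE 0.352, adjusted p = 0.635). Without the wild-type GFP array that value was -0.87 and passed (adjusted p = 0.03), and without LacZ it was 0.33.

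Inhba encodes the beta A subunit of activin A, a ligand that signals through Smad2 and Smad3. It read 3180 untransduced, 3820 with GFP and 3567 after reconstitution in the null line. Wild-type-line signals were 2919 with GFP, 1287 with LacZ, 1346 with full-length PREX2, 1828 with K278*, 845 with E824* and 1133 with Q1430*. The null line was thus higher. The ratio of highest to lowest array was 1.2 over its 3 arrays and 3.46 over the 6 wild-type-line arrays, which carried different constructs. These ratios are not alike, since such a ratio can only grow as arrays are added. The log2 difference between lines was 1.27 (SE 0.309, adjusted p = 0.0159); without the untransduced null array it was 1.34 (adjusted p = 0.0515) and without the null GFP array 1.21 (adjusted p = 0.0707). Against control vector it was 0.84 (SE 0.436, adjusted p = 0.222), and 1.42 without the wild-type GFP array or 0.25 without LacZ.

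Grem1, which encodes the secreted BMP antagonist gremlin, varied as much within a line as between lines. Its signals were 10300, 4907 and 10787 on the untransduced, GFP and reconstituted null-line arrays. They were 11097, 4621, 6717, 8394, 3316 and 4617 on the wild-type GFP, LacZ, full-length, K278*, E824* and Q1430* arrays. No order by line or genotype was visible, and the log2 difference between lines was 0.46 (95% confidence interval -0.47 to 1.39, adjusted p = 0.401). With the wild-type GFP and K278* arrays both left out, a choice made after seeing the data, it was 0.80 and passed (adjusted p = 0.00851). In that setting 59.1% of all probe sets passed, against 37.6% with all arrays. Between the 2 null and the 2 control-vector arrays, wild-type GFP among them, the log2 difference of Grem1 was -0.01 (95% confidence interval -1.32 to 1.30).

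Smad6 preferentially inhibits BMP receptors. It read 3178, 3761 and 2858 in the untransduced, GFP and reconstituted null-line cells. The 6 arrays of the wild-type line stayed within 1349 to 1529. These differed by no more than 1.13 times, and the groups were widely separated. Smad6 was higher in the null line by 1.18 (SE 0.0936, adjusted p = 0.000135) on the log2 scale, or 2.26-fold, and by 1.26 (SE 0.132, adjusted p = 0.0011) against control vector.

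Smad7 inhibits both BMP and TGF-beta receptors, and its probe sets disagreed on the size of the difference, though not on its direction. The slightly brighter one, whose suffix (x_at) marks probes that may also bind related transcripts, read 2024 and 1750 in the null group, 622 after reconstitution and between 201 and 541 in the wild-type line. The other read 1029, 1048 and 827 in the null line. On it the wild-type GFP array (936) and the K278* array (805) reached the null-line level, and the other 4 wild-type-line arrays lay between 458 and 531. The first probe set was higher in the null line by 1.66 (SE 0.292, adjusted p = 0.00422) between lines and 2.11 (SE 0.414, adjusted p = 0.0133) against control vector. The latter call ended without the untransduced null array (2.01, adjusted p = 0.0921) or without the null GFP array (2.21, adjusted p = 0.0788). The second gave 0.67 (SE 0.231, adjusted p = 0.0563) and 0.54 (SE 0.327, adjusted p = 0.285), and its difference between lines passed without the wild-type GFP, LacZ or K278* array (0.79, 0.64 and 0.75; adjusted p = 0.0142, 0.0318 and 0.0213). With all arrays and a mean for each of the 5 groups, the difference thus passed at 1 of the 2 tested Smad7 probe sets. With all arrays but only 2 line means in the fit, the second also passed between lines (0.67, adjusted p = 0.0305).

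**Figure D2:**
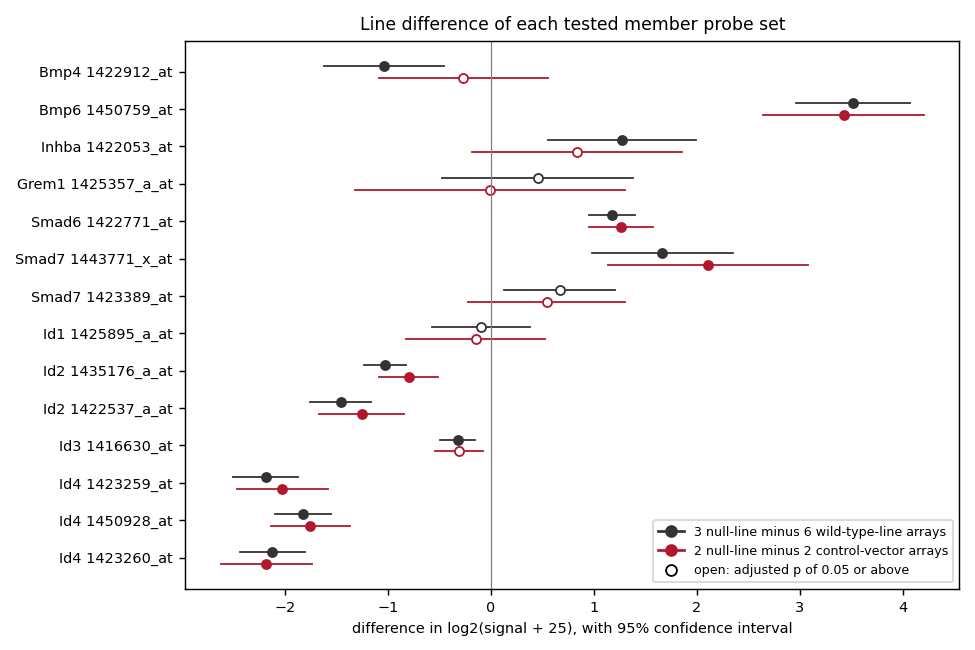
Difference in log2(signal + 25) for the 14 tested member probe sets, between the 3 null-line and 6 wild-type-line arrays (black) and between the 2 null and 2 control-vector arrays (red), with 95% confidence intervals; filled points have an adjusted p below 0.05. The 3 Id4 and 2 Id2 probe sets lie below 0 and Bmp6 and Smad6 above it in both comparisons, while the 2 Smad7 probe sets differ.

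Id4, which encodes an Id protein also known from neural and bone development, was the most reduced member. Its brightest probe set read 652, 882 and 572 for the untransduced, GFP and reconstituted null-line cells, and 2780, 3611, 3073, 3089, 3488 and 3446 on the wild-type GFP, LacZ, full-length, K278*, E824* and Q1430* arrays. Every null-line array was below every wild-type-line array by a wide margin. The difference between lines was -2.19 (SE 0.134, adjusted p = 4.47e-05), a 4.55-fold lower level, and the 2 other probe sets gave -1.83 and -2.12 (adjusted p = 5.4e-05 for both). Against control vector the 3 differences were -2.03, -1.75 and -2.18 (adjusted p between 0.000535 and 0.000725).

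Id2, which like other Id proteins restrains E-protein-driven differentiation, was lower at both tested probe sets. The brighter read 3243, 3648 and 2507 on the null-line arrays and between 5808 and 7395 in the wild-type line. The other read 976, 1073 and 742 against 2207 to 2957. Neither showed overlap between lines. The log2 differences between lines were -1.03 (SE 0.0867, adjusted p = 0.000174) and -1.46 (SE 0.125, adjusted p = 0.000187). Against control vector they were -0.80 (SE 0.123, adjusted p = 0.00533) and -1.26 (SE 0.177, adjusted p = 0.0038); the first missed the threshold without the untransduced null array (-0.71, adjusted p = 0.0553).

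Id3 moved little but evenly. Its signals were 6446, 7121 and 7150 in the null line and 8245 to 9184 in the wild-type line, so the lines did not overlap although they differed by only 1.25 times. The log2 difference was -0.32 (SE 0.0718, adjusted p = 0.0112), which did not pass without the untransduced null array (-0.27, adjusted p = 0.0722), and against control vector it was -0.31 (SE 0.102, adjusted p = 0.0715).

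Id1, a widely used readout of BMP signalling, did not separate the lines. It read 5736, 6453 and 4908 on the null-line arrays and 8997, 5047, 5990, 7196, 4835 and 5115 on the wild-type GFP, LacZ, full-length, K278*, E824* and Q1430* arrays. The null-line values fell inside the wild-type range. The difference between lines was -0.09 (95% confidence interval -0.57 to 0.38, adjusted p = 0.753), and that against control vector was -0.15 (95% confidence interval -0.82 to 0.53). The interval between lines does not reach the differences of Id2 or Id4; the difference between these genes was not tested.

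The other genes of the pathway also moved in both directions. Of 79 further genes looked up in 6 lists, 50 were tested, and 9 rose and 11 fell in the null line against control vector; between lines 11 were higher and 17 lower. The shares over all probe sets were 10.7% and 8.94% against control vector and 19.5% and 18.1% between lines; whether these lists stand apart from other genes was not tested. Of 17 other ligand genes 14 had a probe set carrying their symbol alone, and 4 of these were bright enough to test. Tgfb3, a TGF-beta isoform, rose by 1.30 (SE 0.35, adjusted p = 0.0393), and Bmp2, Bmp5, Bmp7 and Tgfb1 were among those with mean signals under 100. Of 11 tested receptor and co-receptor genes 2 rose and 4 fell. They included the TGF-beta co-receptor betaglycan, Tgfbr3 (-1.60, SE 0.242), endoglin, Eng (1.44, SE 0.208), and the BMP co-receptor gene Rgma (-1.18, SE 0.231, above the minimum only through the wild-type line), with adjusted p of 0.00506, 0.0042 and 0.0131. Bmpr2, the type II BMP receptor, was higher by 0.69 (SE 0.0887, adjusted p = 0.0011) between lines. The type I receptor genes Acvr1b (-1.12, SE 0.0987, adjusted p = 0.000212) and Tgfbr1 (-0.87, SE 0.0832, adjusted p = 0.000297) were lower.

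Among 12 tested receptor Smads and regulators 2 rose and 2 fell against control vector. The pseudoreceptor Bambi, which blocks type I receptors, fell by 1.74 (SE 0.263, adjusted p = 0.00499). Skil (1.20, SE 0.275) and Ski (0.69, SE 0.184), nuclear repressors of Smad-driven transcription, rose with adjusted p of 0.0231 and 0.0384. Of 8 tested genes for extracellular antagonists and latent TGF-beta binding proteins, 0 rose and 2 fell. These were Bmper, which binds BMPs (-3.07, SE 0.358, mean signals of 117 against 1183), and Ltbp2, of the latent TGF-beta binding protein family (-3.64, SE 0.193, 151 against 2175). Their adjusted p were 0.00174 and 6.26e-05. Of 9 tested target genes 3 rose and 1 fell. The homeobox gene Msx1 rose by 1.98 (SE 0.259, mean signals of 312 against 63.2), Tgfbi, a TGF-beta-induced matrix protein, fell by 3.19 (SE 0.486), and the Notch and BMP target Hes1 rose by 0.73 (SE 0.144), with adjusted p of 0.00291, 0.00511 and 0.0133.

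Of 6 tested helix-loop-helix genes, the partners or relatives of Id targets, 1 rose and 2 fell against control vector. Hand2 rose by 2.56 (SE 0.227, from a mean signal of 44.9 to 389.9), and like Msx1 reached the minimum mean signal only through the null line, while the E protein Tcf4 fell by 1.15 (SE 0.237, from 5437 to 2392) and Twist2 by 1.06 (SE 0.195); adjusted p were 0.000573, 0.016 and 0.0104. Between lines the genes with the largest changes in each list were largely those already named, with the activin receptor gene Acvr2a (-1.20, SE 0.235, adjusted p = 0.00666), the BMP antagonist Nbl1 (0.53, SE 0.113, adjusted p = 0.00965) and the matricellular target Ccn2 (1.73, SE 0.295, adjusted p = 0.00376) in addition. There the E proteins Tcf3 (-0.51, SE 0.128, adjusted p = 0.0182) and Tcf12 (-0.44, SE 0.0767, adjusted p = 0.00396) were lower as well as Tcf4 (-1.33, SE 0.167, adjusted p = 0.000981). All 3 E-protein genes tested were thus lower between lines, as were 18.1% of all probe sets. Against control vector Tcf3 (-0.61, adjusted p = 0.055) and Tcf12 (-0.33, adjusted p = 0.0699) did not pass. Whether these genes are linked to the Id genes was not tested.

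**Figure D3:**
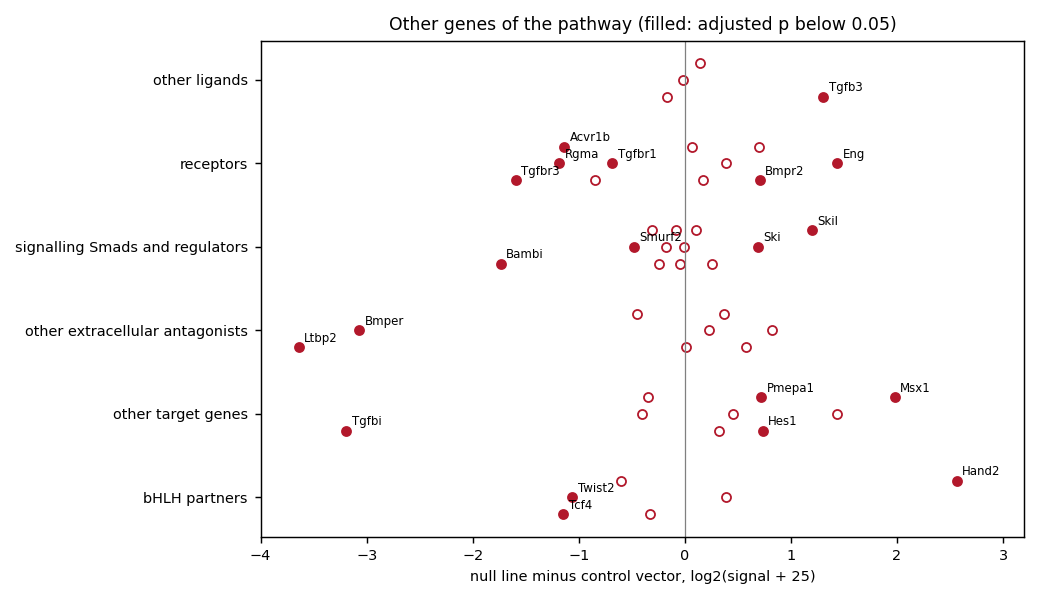
Difference in log2(signal + 25) between the null group and control vector (2 against 2 arrays) for 50 other tested genes of the pathway in 6 lists; each point is 1 gene and filled, named points have an adjusted p below 0.05. Filled points lie on both sides of 0 in most lists, 9 higher and 11 lower in all.

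The reconstituted array asks which members move when Suv420h1-GFP is put back. Of 10 members 0 passed in limma, as did 0% of all 19090 probe sets; 3 members and 621 probe sets had an unadjusted p below 0.05. By value, 7 members were lower on this array than on both null arrays (33.0% of all probe sets) and 2 were higher (38.9% of all probe sets). Bmp4 read 441 after reconstitution against 1151 and 1502, a log2 difference of -1.52 (SE 0.431, 1 against 2 arrays, 95% confidence interval -2.53 to -0.52). The brighter Smad7 probe set read 622 against 2024 and 1750, a difference of -1.56 (SE 0.507), whereas the other read 827 against 1029 and 1048. Both values lie well outside the range of the 2 null arrays, but the adjusted p was 1 for every member.

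Smaller differences in the same direction were seen for Bmp6 (-0.70), Smad6 (-0.27), Id1 (-0.31), Id2 (-0.45, the third member with an unadjusted p below 0.05) and Id4 (-0.39; -0.21 and 0.13 at its other probe sets); none passed. For Bmp6, Smad6 and Smad7 the reconstituted value lay on the wild-type side of the null arrays. For Bmp4, Id2 and Id4 it lay further from the wild-type line than the null arrays did. Id3 (0.08) and Inhba (0.03) were level with the null arrays, and Grem1, at 10787, was close to the untransduced null array (10300) and not to the null GFP array (4907). When the null and reconstituted groups were fitted alone, Bmp4 and Smad7 passed, as did other probe sets. There the spread came from the 2 null arrays alone, with 1 residual degree of freedom, so these calls cannot be relied on.

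**Figure D4:**
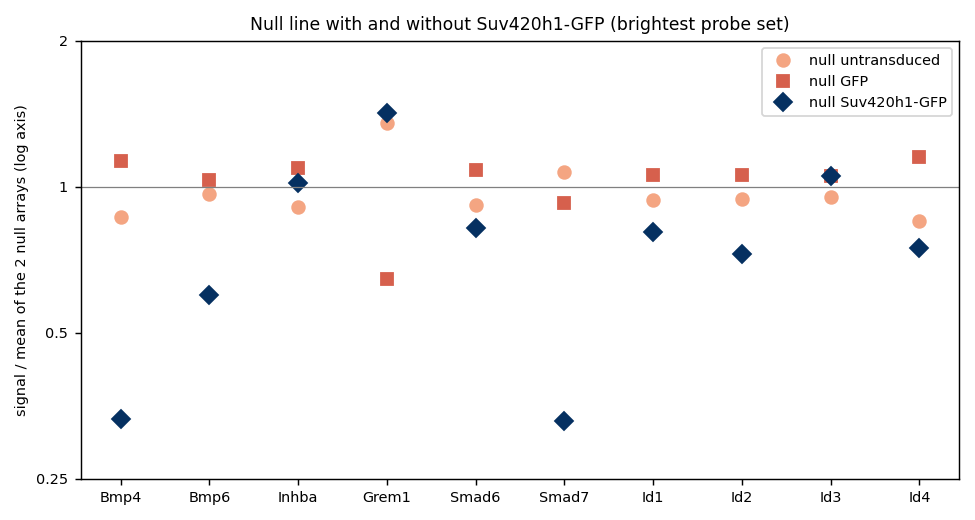
Signal of each member's brightest probe set on the 3 null-line arrays, divided by the mean of the 2 null arrays (log axis). The reconstituted array (diamonds) lies at 0.333 for Bmp4 and 0.33 for Smad7, below both null arrays for 7 genes and above both for Grem1 and Id3.

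PREX2 constructs, whose expression was not evident at the Prex2 probe sets, gave no call among the members. Against control vector 0 of 10 members passed with truncated PREX2 (3 against 2 arrays; 0.00524% of all probe sets, or 1, passed) and 0 with full-length PREX2 (1 against 2 arrays; 0% of all). Between truncated and full-length PREX2 the count was also 0 (0% of all). Unadjusted p-values below 0.05 numbered 0 of the 10 members in each of these comparisons, and 539, 269 and 241 over all probe sets. With truncated PREX2 the member differences ran from -0.67 for Inhba to 0.34 for Bmp4 (adjusted p of 0.844 or above). With full-length PREX2 they ran from -0.52 for Inhba to 0.56 for Bmp4, and between the PREX2 forms from -0.67 for Bmp6 to 0.22 for Id2 (adjusted p of 1 throughout). The extremes for Inhba and Bmp4 against control vector leaned on the wild-type GFP array: without it, Inhba differed by -0.09 and Bmp4 by -0.26 with truncated PREX2.

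How much these comparisons could have shown differed between members. For Id3 the 95% confidence interval with truncated PREX2 ran from -0.18 to 0.25, for Id2 from -0.09 to 0.43 and for Smad6 from -0.33 to 0.24. For Grem1 it ran from -1.70 to 0.70 and for Inhba from -1.61 to 0.26, and both intervals include a 2-fold decrease. On the E824* array Bmp6, Inhba, Grem1, Id1 and both Smad7 probe sets had their lowest value of the 9 arrays, and both tested Id2 probe sets their highest.

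Within the wild-type line the members differed in steadiness. The ratio of highest to lowest array was 1.11 for Id3, 1.13 for Smad6, 1.27 for Id2 and 1.3 for Id4, but 1.86 for Id1, 2.32 for Bmp4, 3.35 for Grem1 and 3.46 for Inhba. Grem1, Inhba, Id1 and Smad7 at both probe sets were highest on the wild-type GFP array and next highest on K278*. For Bmp4 the GFP array was instead the lowest, with K278* among the higher values. The mean log2 signal of 11 tested G1/S genes, which serve DNA replication, was 12.02 on the GFP array and 11.74 on K278*. It was 11.25 on full-length, 11.17 on LacZ, 10.99 on Q1430* and 10.77 on E824*, so the arrays with high Grem1, Inhba, Id1 and Smad7 were those with high G1/S signal. In the null line Grem1 was likewise high on the arrays with the higher G1/S means (11.66 and 11.50, against 11.31 for null GFP). Inhba, Id1 and the second Smad7 probe set were instead highest on null GFP, so there 3 of these 4 members went against the pattern. The part of growth state in these values was not tested.

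**Figure D5:**
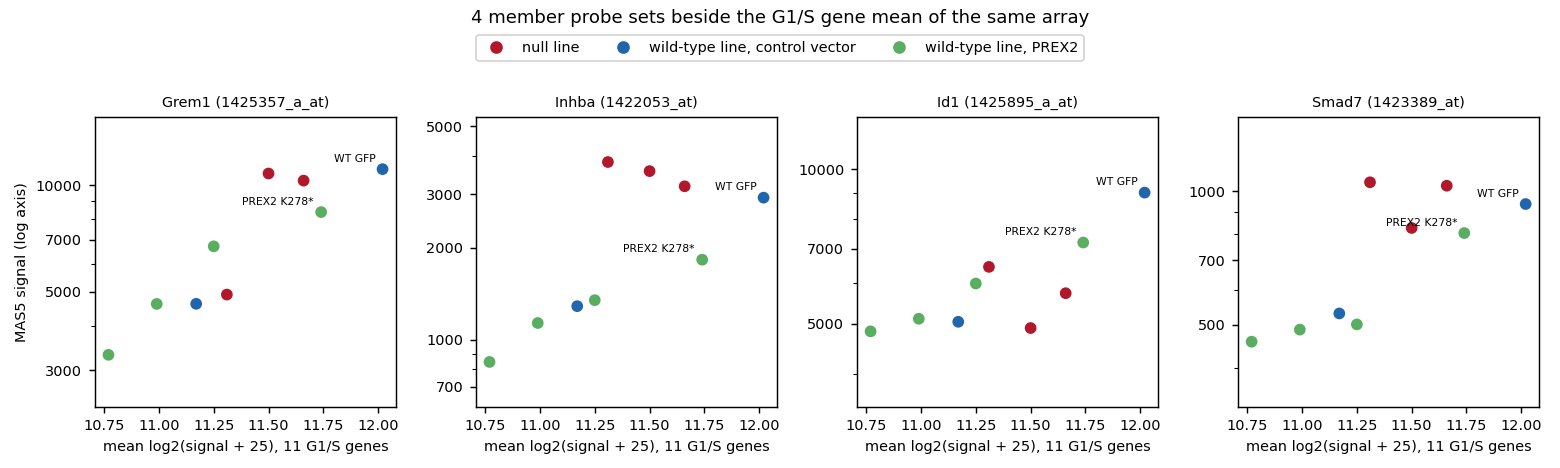
Signal of Grem1, Inhba, Id1 and Smad7 (its second probe set) on a log axis against the mean log2(signal + 25) of 11 G1/S genes on the same array, for 3 null-line (red), 2 control-vector (blue) and 4 PREX2 (green) arrays. Among the wild-type-line arrays GFP and K278* have the highest G1/S means, 12.02 and 11.74, and the highest signals of all 4 members.

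As a description of likeness, each member's log2 signal over the 9 arrays was set against 10176 other genes by Pearson correlation, and the nearest pair of non-members was taken. These values are the highest of many, the arrays share a line and the lines separate most genes, so no test is given. For Id4 the nearest were Serpinf1 and Akip1 (r = 0.996 for both), for Id2 Tlr4 (0.987) and Gsta3 (0.985), and for Id3 Sdhaf1 (0.976) and Capn10 (0.971). Bmp6 lay nearest to Slc10a7 (0.995) and Dda1 (0.994), Smad6 to Tacc1 (0.993) and Fbln7 (0.992), and Smad7 to Fmn1 (0.980) and Cox18 (0.965). Inhba lay nearest to Myc (0.994) and Pkp2 (0.988), Grem1 to Cenph (0.978) and Ints13 (0.971), Id1 to Basp1 (0.982) and Cdca7l (0.974), and Bmp4 to Sptlc2 (0.979) and Slit2 (0.974).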

How the data were processed

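RNA from all 9 samples was run on Affymetrix mouse arrays after 3'-primed amplification, per the labels' protocols. The authors deposited linear intensity values made with MAS5, per the submitters' processing notes. Its version and scaling target are not stated there, and detection calls were not used. Each array's trimmed mean (2% off each end) was 500.0. Of 45101 probe sets, 64 controls were left out; 34945 of the rest carried 1 gene symbol, 932 several and 9160 none, and only the first kind were named.

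Signals were taken as log2(signal + 25), so fold changes of dim probe sets are understated, and probe sets with a mean of at least 100 were analysed using limma 3.58.1 under R 4.3.3, with a mean for each of the 5 groups and an intensity trend. A single-array group takes its spread from the remaining groups. P-values are two-sided and adjusted over all 19090 probe sets by the Benjamini-Hochberg method, threshold 0.05. A gene's value is that of its brightest probe set; the other tested ones are given singly. In each list up to 3 passing genes with the largest changes were named. The receptor genes Bmpr2, Acvr1b and Tgfbr1 and the E proteins Tcf3 and Tcf12 were added for their role. The fit was tested on simulated data. Alternatives were other offsets, filters, normalization, variance settings, probe-set means, the compared groups alone and single arrays left out. The members and lists were chosen with earlier results of these data known.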

Additional observations from a re-analysis of the deposited data

Results flagged for a closer look

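Among the 14 tested member probe sets, Bmp4 had a wild-type-line array far from the others: its value on the wild-type GFP array, 1043, was lower than the next lowest of the 6 arrays, 1828 on E824*, by a gap that made up 0.667 of the whole range on the log2 scale. About 1 in 20 such groups is marked by chance, and 14 were examined.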

How the results depend on the processing

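Members called in the comparison between lines kept their direction under every alternative run. With 1 array left out, member calls between lines numbered 6 to 8 (8 with all arrays). The share of all probe sets called there ran from 22.7% without null GFP to 43.7% without wild-type GFP (37.6% with all arrays). Under the other alternatives 7 to 9 members were called. The 9 came without both GFP and K278*, where 59.1% of all probe sets were called. Without a minimum signal 8 members and 17.9% of all probe sets were called. Whether the members differed from other probe sets in this was not tested. Bmp6, with a mean signal under 200, could not be tested at a minimum of 200. Against control vector they numbered 3 to 6 with 1 array left out. Each of those fits against control vector left 1 array in a group, so this range says nothing about the members in particular. The number of all probe sets called there also changed with the array left out, as given below. The member calls after reconstitution in fits of the compared groups alone took their spread from the 2 null arrays, as stated above. In the PREX2 comparisons 0 members passed under any alternative. Values that turned direction had not passed with all arrays. With single arrays left out, Id1 between lines ran from -0.186 to 0.023 (without wild-type GFP); it was 0.011 without the reconstituted array and 0.115 without GFP and K278*. Against control vector Grem1 was 0.053 after quantile normalization; with single arrays left out it ran from -0.64 to 0.619, Id1 from -0.563 to 0.268 and Bmp4 from -0.865 to 0.328. Inhba after reconstitution ran from -0.098 to 0.164. Bmp4 ran from -0.259 to 0.934 with truncated and from -0.035 to 1.157 with full-length PREX2, and Inhba from -1.102 to 0.064 with full-length, the ends being the control group without GFP or without LacZ. The number of probe sets called against control vector, 3753, was 1226 without untransduced null, 1011 without null GFP and 1834 in fits of the compared groups alone. With truncated PREX2 it was 117 without LacZ (1 with all arrays). The causes were not tested. Leaving out the reconstituted, the full-length, or the GFP and K278* arrays was chosen after seeing the data. No paired analysis was possible because the labels give no replicate numbers. Signals near background limit Bmp6.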
